A study of Homo sapiens with 192 samples.

Results

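The S100 family was followed through 10 of its coding genes, S100A2, S100A3, S100A4, S100A6, S100A8, S100A9, S100A10, S100A11, S100A14 and S100P, which were chosen by name out of 58243 genes listed in the counts. Of the 10, 9 passed the filter on low counts that 19387 genes passed in all, and S100A8 did not. Human CRC cells of the microsatellite stable lines HT29 and LS513 and of the microsatellite instable lines HCT116 and LS174T were sequenced after 2D growth and after 3D growth. The 8 groups of line and growth condition held 3 libraries each, 24 in all, and no treatment or engineered change set the groups apart. HCT116 was kept in McCoy medium and the other lines in DMEM, so that what belongs to the line and what belongs to the medium cannot be told apart. Each line descends from 1 tumour. The labels do not say whether the 3 libraries of a group came from separate cultures, so the p-values measure only the spread between these libraries, which may be technical.

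S100 proteins are small calcium-binding proteins that work mostly as dimers. When calcium fills their EF-hand loops, a hydrophobic face opens and docks onto partners such as annexins, the cytoskeletal motor myosin or the tumour suppressor p53. S100A10 is an exception, since its loops no longer bind calcium, and it forms a stable complex with annexin A2 that holds plasminogen at the cell surface. S100A8 and S100A9 pair up as calprotectin, the main cytosolic protein of neutrophils and a clinical marker of gut inflammation. Several members, S100A4 and S100P among them, are known for high levels in carcinomas.

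On GRCh38 with the GENCODE 29 annotation, 9 of the 10 genes lie on chromosome 1. S100A10 (151982915-151994390) and S100A11 (152032506-152047907) are neighbours and stand apart from the main cluster. In it, S100A9 (153357854-153361027), S100A8 (153390032-153391188), S100A6 (153534599-153536244), S100A4 (153543613-153550136), S100A3 (153547329-153549372), S100A2 (153561108-153567890) and S100A14 (153614255-153616986) lie within the 274 kb from S100A9 to S100A1. The span of S100A3 lies inside that of S100A4, without shared exonic bases. S100P is alone on chromosome 4 (6693069-6697170). S100A9 and S100P are on the plus strand and the others on the minus strand. No member shares exonic bases with another gene on its own strand, and 0% of the 75-base stretches of their transcripts occur in transcripts of other genes, pseudogenes included, so reads of 75 bases can be told apart between members.

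The stretch just before the transcription start is shown for 8 members to set the core promoter letters of the most abundant members, of S100P and of the calprotectin pair side by side. Each sequence is the 70 bases before a RefSeq start site (GRCh38.p14), read 5′ to 3′ along the gene, and the capitals mark TATAA on the gene strand.
S100A4 (chr1:153545807-153545876, minus strand): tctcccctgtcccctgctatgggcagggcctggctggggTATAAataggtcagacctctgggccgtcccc
S100A6 (chr1:153535992-153536061, minus strand): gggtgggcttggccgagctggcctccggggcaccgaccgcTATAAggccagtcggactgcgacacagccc
S100A14 (chr1:153616326-153616395, minus strand): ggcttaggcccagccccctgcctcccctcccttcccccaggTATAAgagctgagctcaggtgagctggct
S100P (chr4:6693808-6693877, plus strand): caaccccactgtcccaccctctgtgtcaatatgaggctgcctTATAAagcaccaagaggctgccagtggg
S100A8 (chr1:153391074-153391143, minus strand): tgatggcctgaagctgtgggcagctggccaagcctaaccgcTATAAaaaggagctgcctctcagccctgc
S100A9 (chr1:153357784-153357853, plus strand): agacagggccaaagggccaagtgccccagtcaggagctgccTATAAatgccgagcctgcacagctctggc
S100A10 (chr1:151993860-151993929, minus strand): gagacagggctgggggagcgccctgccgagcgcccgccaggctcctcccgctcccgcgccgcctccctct
S100A11 (chr1:152037005-152037074, minus strand): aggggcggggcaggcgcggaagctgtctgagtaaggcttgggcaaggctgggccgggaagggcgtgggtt
The letters TATAA were found at 28 to 31 bases before the start in S100A4, S100A6, S100A14, S100P, S100A8 and S100A9, counting S100A8 at the second of its 3 listed starts. That makes 6 of 10 members, beside 6.93% of 27305 genes with TATAA in this window before any listed start. The letters TATAA were chosen after the sequences were seen. The longer TATAAA was on the gene strand in a 300-base promoter of 4 members, beside 7.33% of 35116 promoters. The window held no TATAA in S100A10, S100A11, S100A2 or S100A3. In S100A10 it was 80.0% G or C, the highest share among the members. A match to these letters is a description of the window and not a measured binding site.

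Levels are given as CPM on the TMM scale, that is, counts set to the same sequencing depth and corrected for the composition of the libraries. A gene was regarded as above the floor in a library with more than 3 counts, which is between 0.0875 and 0.160 CPM before TMM scaling, and intervals and floors cover counting error only. Library totals lay between 18723942 and 34277421 counts. All 8 epithelial markers were above the floor in every library, and of these 4 rose and 1 fell in 3D in HT29, 6 rose in LS513, 3 rose in HCT116 and 3 rose in LS174T. For both HCT116 and LS174T, 5 of the 8 were not shown to change, beside 3 for HT29 and 2 for LS513. The share of all tested genes that rose was 13.1% for LS174T, 16.8% for HCT116, 13.7% for LS513 and 21.1% for HT29. The keratin genes KRT19 and KRT20, picked from the 8 after their values were seen, rose in all 4 lines. Of the 11 myeloid and neutrophil markers, ELANE and S100A12 had no count in any group. Of the 8 fibroblast and mesenchymal markers, COL1A2 had none, and their summed level was between 0.726 and 24.8 CPM. In RNA from bulk cultures, fewer cells of a type and less RNA per cell cannot be told apart.

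S100A8 had no count in any of the 24 libraries, and 3 counts over all of them would be 0.00411 CPM. S100A9, its partner in calprotectin, was nearly as low, with 151 counts in all, and was above the floor in 10 of 24 libraries. Its counts in LS174T were 10, 3 and 15 in 2D and 25, 32 and 17 in 3D, and HCT116 had 0 or 1 in each library. The 3D counts of LS174T were thus the highest and did not overlap with the 2D ones. S100A9 passed the test in none of the 4 lines, with adjusted p (edgeR) between 0.0527 for LS174T and 1.00 for HCT116. It came under 0.05 without LS513 2D replicate 3 (0.0479), LS513 3D replicate 2 (0.0483) or LS174T 3D replicate 3 (0.0303) in LS174T, without LS513 2D replicate 3 in LS513 (0.0322), and without any of 4 libraries in HT29, HT29 2D replicate 2 (0.0378), HT29 3D replicate 1 (0.0327), LS513 2D replicate 3 (0.0499) and LS174T 3D replicate 2 (0.0498).

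The remaining 8 members differed widely between lines. Summed over the 10 genes, 2D cultures held 5997 ± 567 CPM in HT29 and 5010 ± 329 CPM in LS513 (SD, n = 3), but 742 ± 143 CPM in HCT116 and 1283 ± 201 CPM in LS174T. S100A6, which binds annexins and the ubiquitin ligase adaptor CACYBP, made up between 34.4% of this sum (HT29 in 2D) and 61.0% (HCT116 in 3D). Per kilobase of exon, S100A6 was also the most abundant member in 2D in all 4 lines, with mean levels of 2840 CPM per kb in LS513, 2116 in HT29, 720.3 in LS174T and 436 in HCT116. The next level per kilobase belonged to S100A4 in HT29 (1728 CPM per kb), to S100A11 in LS513 (956) and HCT116 (138), and to S100A14 in LS174T (230.1).

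**Figure D1:**
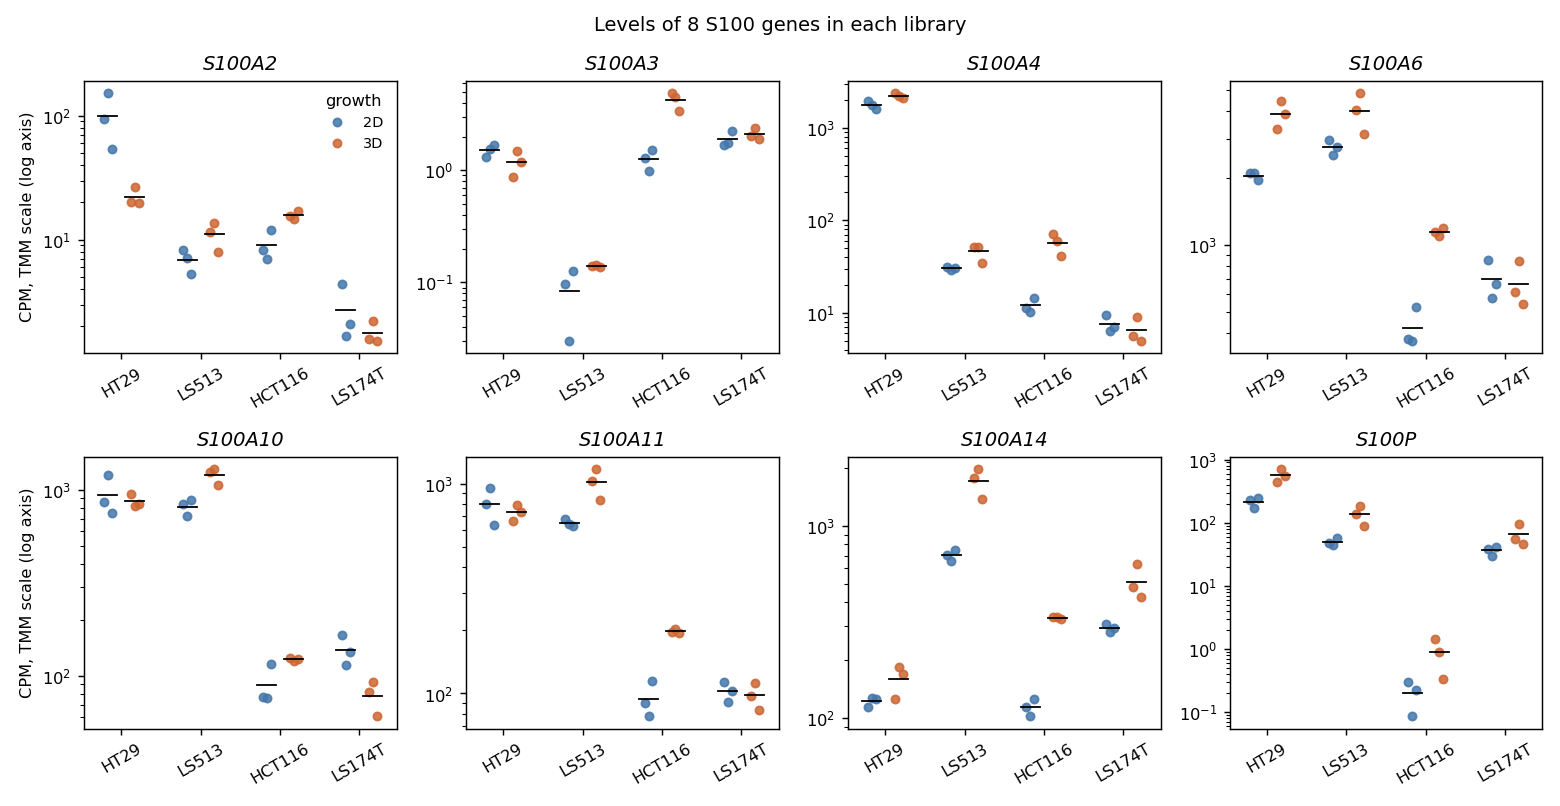
Level of 8 S100 genes in each of the 24 libraries, in CPM on a log axis, by cell line, with 2D libraries in blue, 3D libraries in orange and a line at the mean of each 3. S100A4 lay between 1600.2 and 2349 CPM in HT29 and between 5.01 and 71.4 CPM in the other lines, and S100P in HCT116 lay between 0.0863 and 1.43 CPM.

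In 2D, all 9 tested members differed between the lines, as did 91.7% of all tested genes. S100A4, which binds non-muscle myosin, had the widest range among members above the floor in every library. Its libraries held 1932, 1781 and 1600.2 CPM in HT29, 31.4, 29.2 and 30.6 CPM in LS513, 11.3, 10.3 and 14.6 CPM in HCT116, and 9.51, 6.40 and 7.05 CPM in LS174T. The order of means was HT29, LS513, HCT116 and LS174T, every pair of neighbours differed (largest adjusted p of edgeR 0.0090, HCT116 against LS174T), and the mean of HT29 was 231-fold that of LS174T.

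S100A6 was highest in LS513, then HT29, LS174T and HCT116, and neighbours differed here too, HT29 against LS513 by the least (log2 difference 0.42 ± 0.17 SE, adjusted p of edgeR 0.0362). S100A10 and S100A11 followed another order, with HT29 and LS513 high and not shown to differ (adjusted p 0.320 and 0.0884), and LS174T and HCT116 well below. S100A14, known mainly from epithelial tissues, was highest in LS513 with 703 ± 42.8 CPM (SD, n = 3), followed by LS174T with 294 ± 15.7 CPM, while HT29 (122 ± 6.98 CPM) and HCT116 (113 ± 11.4 CPM) were not shown to differ. S100P was highest in HT29, was not shown to differ between LS513 and LS174T (adjusted p 0.197), and was near the floor in HCT116, with 10, 3 and 7 counts in the 3 libraries. S100A2, first described as a gene lost in tumour cells, was 11.04-fold higher in HT29 than in HCT116, the next line. S100A3, a low member here, was between 0.0302 and 0.127 CPM in LS513, at 1 to 4 counts per library, and between 0.978 and 2.25 CPM in the other lines.

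Growth in 3D was compared with 2D within each line, and a member was called at an adjusted p under 0.05. In HT29, 3 members rose and 1 fell, beside 21.1% and 19.6% of all tested genes. In LS513, 6 rose and 0 fell, beside 13.7% and 9.9% of genes, and in HCT116, 6 rose and 0 fell, beside 16.8% and 12.3%. In LS174T, 2 rose and 1 fell, beside 13.1% and 9.15%. The median log2 fold change of the 9 members was 0.32 for HT29, 0.68 for LS513, 1.43 for HCT116 and -0.07 for LS174T, beside medians of 0.00, 0.00, 0.01 and 0.02 over all tested genes. The counts of members that rose depended on single libraries in each line. With 1 library left out, the counts were between 2 and 4 in HT29 and between 5 and 8 in HCT116. They were 3 in LS513 without 2D replicate 2, 3D replicate 1 or 3D replicate 2, and 1 in LS174T without any of the 3 2D libraries or without 3D replicate 2.

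**Figure D2:**
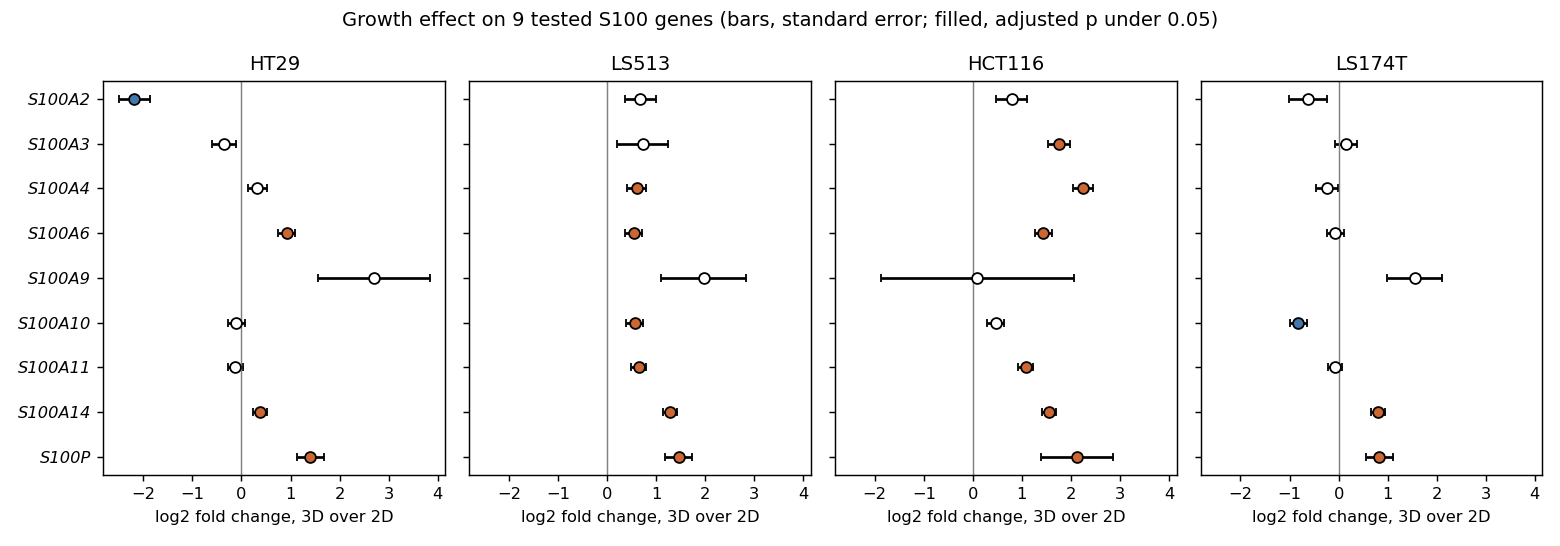
Log2 fold change of 3D over 2D for the 9 tested S100 genes in each cell line, with bars for the standard error and filled points for an adjusted p under 0.05 (orange higher in 3D, blue lower). S100A14 and S100P are filled and to the right of 0 in all 4 panels, S100A2 lies at -2.18 in HT29, and the wide bars belong to S100A9, which had few counts.

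S100A14 and S100P were the members that rose in 3D in all 4 lines. S100A14 held 707, 658 and 744 CPM in the 2D libraries of LS513 and 1770.5, 1973 and 1385 CPM in the 3D libraries. In HCT116 it held 114, 102 and 124 CPM in 2D and 334, 337 and 325 CPM in 3D. In both lines every 3D library was above every 2D library, and the log2 fold change was 1.28 ± 0.14 (SE, edgeR adjusted p = 6.7e-07) in LS513 and 1.55 ± 0.14 (4.6e-08) in HCT116. In LS174T its level went from 309, 278 and 294 CPM to 479.9, 629 and 428 CPM. That was a rise of 0.80 ± 0.14 on the log2 scale (edgeR adjusted p = 3.3e-04), again without overlap. HT29 showed the smallest change, from 114, 127 and 125 CPM to 125, 184 and 169 CPM. These libraries overlapped, the log2 fold change was 0.39 ± 0.14 (edgeR adjusted p = 0.032), and the call was lost without HT29 2D replicate 1 (0.0655), 3D replicate 3 (0.108) or 3D replicate 4 (0.0643).

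S100P, a ligand of the receptor AGER and a partner of ezrin, held 233, 168 and 243 CPM in 2D and 436, 706 and 558 CPM in 3D in HT29. In LS513 it held 47.4, 44.2 and 56.9 CPM in 2D and 136, 183 and 89.1 CPM in 3D. All 3D libraries were above all 2D libraries, with log2 fold changes of 1.40 ± 0.28 (SE, edgeR adjusted p = 4.2e-04) and 1.46 ± 0.28 (6.2e-04). In the other two lines the calls rested on single libraries. In LS174T S100P went from 39.1, 29.6 and 41.6 CPM to 54.6, 95.1 and 46.5 CPM (0.83 ± 0.28, edgeR adjusted p = 0.037). The call was lost without LS174T 3D replicate 2, the highest of the 3D libraries (adjusted p 0.318), and without 2D replicate 1 (0.0784), 2 (0.147) or 3 (0.0650). In HCT116 it rested on 10, 3 and 7 counts in 2D against 43, 28 and 10 in 3D, with an edgeR adjusted p of 0.032. That call was lost without 2D replicate 1 (0.0540), 2D replicate 2 (0.134), 2D replicate 3 (0.0732), 3D replicate 1 (0.175) or 3D replicate 2 (0.0710).

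The annexin partners S100A6, S100A10 and S100A11 moved with the line. S100A6 held 2102, 2103 and 1959 CPM in 2D and 3346, 4466 and 3901 CPM in 3D in HT29. In HCT116 it held 375, 369 and 524 CPM in 2D and 1147, 1096 and 1186 CPM in 3D. It rose in both without overlap, by 0.93 ± 0.17 (SE, edgeR adjusted p = 2.0e-04) and 1.43 ± 0.17 (2.4e-06) on the log2 scale. In LS513 it went from 2969, 2540.0 and 2765 CPM to 4074, 4822 and 3167 CPM, a rise of 0.54 ± 0.17 (edgeR adjusted p = 0.024). That call was lost without LS513 2D replicate 2 (0.0992), 2D replicate 3 (0.0565), 3D replicate 1 (0.0663) or 3D replicate 2 (0.167). In LS174T the 2D libraries (856, 577 and 665 CPM) and the 3D libraries (614, 845 and 540.4 CPM) overlapped widely, with a log2 fold change of -0.07 ± 0.17.

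S100A10 was the member that rose in one line and fell in another. In LS513 it went from 837, 722 and 875 CPM in 2D to 1245, 1291 and 1063 CPM in 3D (0.56 ± 0.17, edgeR adjusted p = 0.021). In LS174T it went from 165, 114 and 135 CPM to 82.0, 92.1 and 60.5 CPM, a fall without overlap (-0.82 ± 0.18, edgeR adjusted p = 0.0023). The fall stayed called without any single library, whereas the rise in LS513 was lost without LS513 2D replicate 2 (0.102), 3D replicate 1 (0.0715) or 3D replicate 2 (0.0886). In HCT116 S100A10 stood at the threshold (0.46 ± 0.18, adjusted p 0.0505), with 76.7, 75.5 and 115 CPM in 2D and 125, 120.2 and 124 CPM in 3D, and without HCT116 2D replicate 3 the edgeR adjusted p was 0.0078. It was also under 0.05 without HT29 2D replicate 2 or 3, LS174T 2D replicate 1 or 2, or LS174T 3D replicate 2 or 3, with values up to 0.0496. In HT29 its 2D and 3D libraries overlapped (-0.11 ± 0.17).

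S100A11 rose in LS513, from 680.0, 642 and 629 CPM to 1034, 1175 and 836 CPM (0.64 ± 0.15, edgeR adjusted p = 0.0025). In HCT116 it went from 89.9, 77.8 and 114 CPM to 198, 203 and 194 CPM (1.08 ± 0.15, edgeR adjusted p = 1.3e-05). Neither pair of groups overlapped. In HT29 (-0.12 ± 0.15) and LS174T (-0.07 ± 0.15) the 2D and 3D libraries overlapped and S100A11 was not called.

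S100A4 gave the largest rise of any well-counted member. In HCT116 its libraries held 11.3, 10.3 and 14.6 CPM in 2D and 71.4, 59.3 and 40.7 CPM in 3D. The lowest 3D library was above the highest 2D library, and the log2 fold change was 2.25 ± 0.21 (SE, edgeR adjusted p = 4.4e-08). In LS513 it went from 31.4, 29.2 and 30.6 CPM to 51.7, 51.9 and 34.9 CPM (0.60 ± 0.20, edgeR adjusted p = 0.028). This call was lost without LS513 2D replicate 1 (0.0647), 2 (0.0934) or 3 (0.0654) and without 3D replicate 1 (0.127) or 2 (0.136). In HT29 its 2D level of 1771 ± 166 CPM stood beside 2214 ± 122 CPM in 3D (SD, n = 3), and every 3D library was above every 2D library. S100A4 was not called there (0.32 ± 0.19, edgeR adjusted p = 0.18). It came under 0.05 with only the libraries of HT29 (edgeR adjusted p = 0.0126) and with all genes of at least 1 count (0.0073). In LS174T S100A4 was not called (-0.24 ± 0.22).

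S100A3, whose best-known site is the hair cuticle, went from 1.30, 0.978 and 1.51 CPM to 4.85, 4.51 and 3.38 CPM in HCT116. That rise was 1.75 ± 0.22 on the log2 scale (SE, edgeR adjusted p = 4.7e-06), and the gene was called in no other line. S100A2 went the other way in HT29, from 94.3, 151 and 54.1 CPM in 2D to 20.0, 26.4 and 19.7 CPM in 3D. The 2D libraries were widely spread, but all lay above the 3D libraries, and the fall was 2.18 ± 0.31 on the log2 scale (edgeR adjusted p = 1.3e-05). In LS174T S100A2 was not called (-0.62, edgeR adjusted p = 0.270), but was called lower with all genes of at least 1 count (0.0122). In LS513 the values of S100A2 were 8.30, 7.10 and 5.32 CPM in 2D and 11.4, 13.7 and 8.0 CPM in 3D, with no call (edgeR adjusted p = 0.140). It came under 0.05 with only the libraries of LS513 (0.0380) and with all genes of at least 1 count (2.6e-04). In HCT116 the values were 8.22, 6.96 and 12.1 CPM in 2D and 15.5, 14.8 and 16.9 CPM in 3D (0.80, edgeR adjusted p = 0.062). Without HCT116 2D replicate 3, the highest of the 2D libraries, the adjusted p was 0.0342. It was also under 0.05 without HT29 2D replicate 2 (0.0374), HT29 2D replicate 3 (0.0298) or LS174T 2D replicate 1 (0.0363).

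Whether the growth effect differed between the lines was tested directly, in the same fit. It did for 7 of the 9 tested members, beside 17.1% of all tested genes, and the smallest adjusted p (edgeR) belonged to S100A4 (1.1e-05) and S100A2 (8.8e-05). For S100P (0.45) and S100A9 (0.87) no difference was shown. Between HCT116 and LS174T, the growth effect differed for 6 members, all larger in HCT116, beside 4.75% of genes, with S100A4 apart by 2.48 ± 0.30 on the log2 scale. Between HT29 and HCT116 it differed for 5 members, all larger in HCT116 (7.76% of genes), among them S100A2, apart by 2.98 ± 0.44 on the log2 scale. Between HT29 and LS513 it differed for S100A2, S100A11 and S100A14 (3 members, 12.1% of genes), each larger in LS513. The other pairs differed in few members, S100A6 between HT29 and LS174T (1 member, 6.65%), S100A4 and S100A6 between LS513 and HCT116 (2 members, 4.34%), and S100A10 between LS513 and LS174T (1 member, 3.62%). These pairs share libraries, so their counts are not independent of each other.

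The libraries of a group also moved together over the members. LS174T 3D replicate 2 was the highest of its group for 9 of the 9 tested members, and LS174T 3D replicate 3 the lowest for 9. LS513 3D replicate 2 was the highest for 9 of 9, and LS513 3D replicate 3 the lowest for 8. LS174T 2D replicate 2 and HCT116 2D replicate 2 were each the lowest for 8. HCT116 2D replicate 3 and HT29 3D replicate 3 were each the highest for 7. The TMM factor of LS174T 3D replicate 2 was 0.933, beside 1.04 and 1.06 in the other two libraries of its group. The part of these shared shifts in the growth effects was not tested beyond leaving out each library in turn.

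**Figure D3:**
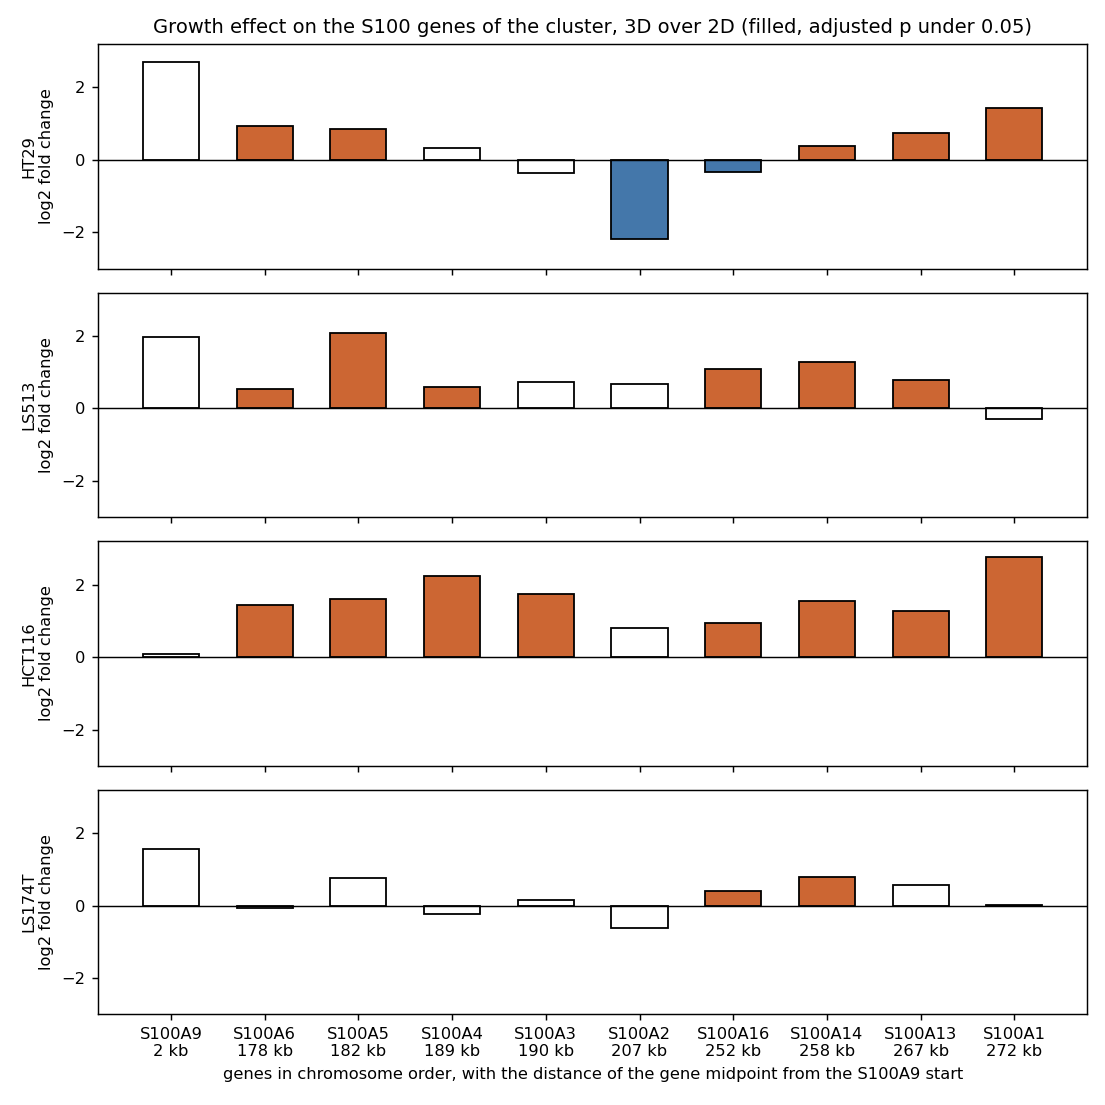
Log2 fold change of 3D over 2D for the 10 tested S100 genes between S100A9 and S100A1 on chromosome 1, in chromosome order, in each cell line, with filled bars for an adjusted p under 0.05 (orange higher in 3D, blue lower). In HCT116, 8 of the 10 bars are filled and above 0, whereas in HT29 S100A3, S100A2 and S100A16 lie below 0, of which S100A2 and S100A16 are filled.

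Of 11 other S100 genes, 4 passed the filter, S100A1, S100A5, S100A13 and S100A16, all in the same cluster. In HT29 3 of the 4 rose and 1 fell, in LS513 3 rose, in HCT116 4 rose and in LS174T 1 rose. S100A16 held 126, 109.9 and 139 CPM in 2D and 242, 228 and 246 CPM in 3D in HCT116 (0.93 ± 0.13, edgeR adjusted p = 1.0e-05). In LS513 it rose by 1.08 ± 0.13 (1.6e-06), while in HT29 it fell by 0.33 ± 0.13 on the log2 scale (edgeR adjusted p = 0.038). The fall in HT29 was lost without each of 11 libraries in turn, with an adjusted p of up to 0.346 without HT29 2D replicate 2. The rise of S100A16 in LS174T (0.42 ± 0.13, edgeR adjusted p = 0.022) was lost without LS174T 2D replicate 2 (0.0965), 2D replicate 3 (0.0689) or 3D replicate 2 (0.132). S100A1, near the floor, was called in HT29 and HCT116, and its call in HT29 was lost without 2D replicate 2 (0.191), 2D replicate 3 (0.0778), 3D replicate 3 (0.113) or 3D replicate 4 (0.0803). S100A5 was called in HT29, LS513 and HCT116 (0.86, 2.08 and 1.60 on the log2 scale), in HCT116 not without 2D replicate 1 (0.0690) or 3D replicate 1 (0.0614). S100A13 shares 24.2% of its exonic bases with AL162258.1 on the same strand, so its rise in HT29, LS513 and HCT116 (0.75, 0.77 and 1.26 on the log2 scale) is uncertain as to the gene. Its call in HT29 was lost without 3D replicate 3 (0.0641), and that in LS513 without 2D replicate 1 (0.0635), 2D replicate 2 (0.0884), 3D replicate 1 (0.0662) or 3D replicate 2 (0.133). Over the whole cluster, 8 of the 10 tested S100 genes rose in HCT116, 6 in LS513, 5 in HT29 and 2 in LS174T, beside 16.8%, 13.7%, 21.1% and 13.1% of all tested genes, and 2 fell in HT29, beside 19.6%.

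Across the 24 libraries the levels of S100A10 and S100A11, neighbours on chromosome 1, had a Pearson correlation of 0.978 in log2 CPM, and S100A6 correlated with S100A11 at 0.960 and with S100A10 at 0.937. The lowest was between S100A3 and S100A10, at -0.65. These are descriptions, since the libraries share their 4 cell lines and the differences between lines carry most of the spread. By the same measure, the genes outside the family most like S100A4 were TRNP1 (0.988) and SLC45A3 (0.986), those most like S100P were COX19 and ADAP1 (both 0.985), those most like S100A10 were SLC22A3 (0.979) and MGAT3 (0.976), and those most like S100A11 were AFAP1L2 (0.979) and SPRR1B (0.977). S100A6 was most like C1orf116 (0.969) and NECTIN4 (0.958), S100A14 most like RNF7 and PLEK2 (both 0.973), S100A2 most like PLEC (0.969) and STK10 (0.946), S100A3 most like PANX2 (0.962) and DGLUCY (0.955), and S100A9 most like CYP3A4 (0.896) and NAT2 (0.884).

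The genes of 15 known S100 binding partners were all tested. In HT29 0 rose and 10 fell, in LS513 5 rose and 2 fell, in HCT116 4 rose and 3 fell, and in LS174T 0 rose and 2 fell, with median log2 fold changes of -0.48, 0.01, 0.01 and -0.07. Over all tested genes, 21.1% rose and 19.6% fell in HT29, 13.7% and 9.9% in LS513, 16.8% and 12.3% in HCT116, and 13.1% and 9.15% in LS174T, so that the 2 that fell in LS513 and in LS174T were near the background. ANXA2, the partner of S100A10, rose in LS513, from a mean of 801 to 1403 CPM (0.81 ± 0.13, edgeR adjusted p = 5.8e-05), and in HCT116 (0.69 ± 0.13, 2.9e-04). In HT29 (-0.06) and LS174T (0.00) its libraries overlapped. In LS174T, then, the mean of S100A10 went from 138 to 78.2 CPM while that of ANXA2 was 708 CPM in both growth conditions. CACYBP, the partner of S100A6, fell in HT29 (-0.48), LS513 (-0.45) and HCT116 (-0.52), and was not called in LS174T (-0.19). SUGT1, another partner of S100A6, fell in HT29 (-0.61) and HCT116 (-0.43). A relation of these falls to S100A6 was not tested. ANXA5 fell by 1.69 ± 0.13 on the log2 scale in HT29, and AHNAK, a large scaffold bound by S100A10 with annexin A2, fell in HT29 (-1.12) and LS174T (-0.43) and rose in HCT116 (1.00). ANXA1 fell in HT29 (-0.79) and rose in LS513 (0.45) and HCT116 (0.79), and ANXA11 rose in LS513 (0.65) and HCT116 (0.29). MDM2 fell in HT29 (-0.50), HCT116 (-0.54) and LS174T (-0.49), and ANXA6 fell in HT29 (-0.73) and LS513 (-0.46). The calls of MDM2 and ANXA6 in each of these lines, of ANXA1 in LS513, of ANXA11 in HCT116 and of AHNAK in LS174T were lost when single libraries were left out, with adjusted p of up to 0.254 for MDM2, 0.195 for ANXA6, 0.226 for ANXA1, 0.0723 for ANXA11 and 0.180 for AHNAK.

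**Figure D4:**
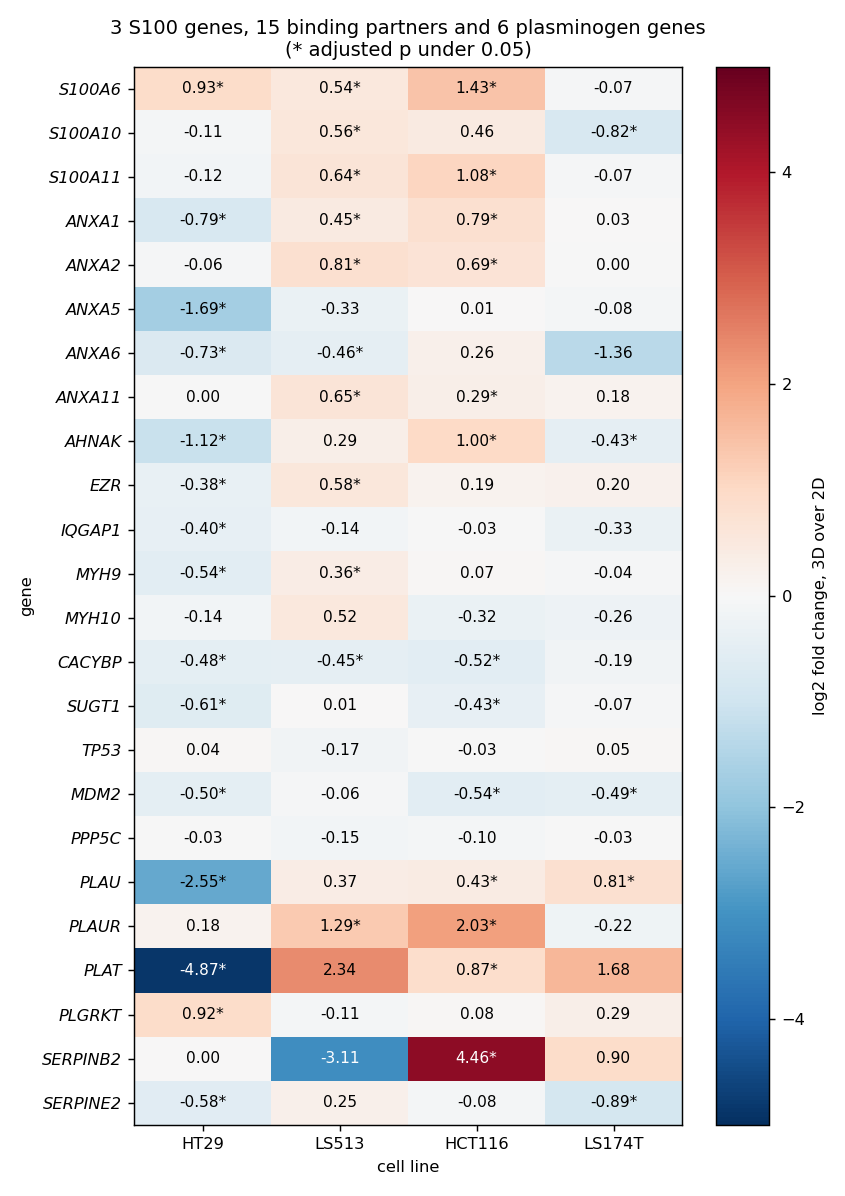
Log2 fold change of 3D over 2D for S100A6, S100A10 and S100A11, the 15 binding partners and the 6 tested genes of plasminogen activation (rows) in each cell line (columns), written in each cell and coloured from blue (lower in 3D) to red (higher), with an asterisk for an adjusted p under 0.05. Of the partners, 10 are lower with an asterisk in HT29, and PLAUR is higher with an asterisk in LS513 (1.29) and HCT116 (2.03). The largest values belong to genes near the floor in a group, PLAT in HT29 and SERPINB2 in HCT116.

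Of 7 genes of plasminogen activation, the process in which S100A10 acts as a receptor, 6 were tested and PLG was not. In HT29 1 rose and 3 fell, in LS513 1 rose and 0 fell, in HCT116 4 rose and 0 fell, and in LS174T 1 rose and 1 fell. The shares of all tested genes that rose and fell were 21.1% and 19.6% in HT29 and 13.7% and 9.9% in LS513. In HCT116 they were 16.8% and 12.3%, and in LS174T 13.1% and 9.15%. The counts of 1 were near these shares. PLAUR, the receptor of urokinase, rose from a mean of 33.5 to 82.3 CPM in LS513 and from 18.6 to 75.9 CPM in HCT116 (2.03 ± 0.18, edgeR adjusted p = 3.6e-08). S100A10 itself was called higher in LS513 and was not called in HCT116. PLAU, urokinase itself, fell in HT29 (-2.55) and rose in HCT116 (0.43) and LS174T (0.81), and the rise in HCT116 was lost without each of 5 libraries in turn (adjusted p of up to 0.223). SERPINE2, a serpin that inhibits it, fell in HT29 (-0.58) and LS174T (-0.89). PLAT fell from 1.71 CPM to 0.0579 CPM in HT29, below the floor, and rose in HCT116 (0.87, edgeR adjusted p = 0.0099), where the call was lost without 3D replicate 2 (0.0727). SERPINB2 rose from 0.0203 to 0.530 CPM in HCT116.

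All 7 genes of S100 receptors were tested, and 1 rose and 1 fell in HT29, 2 rose in LS513, 0 moved in HCT116 and 2 fell in LS174T. Of all tested genes, 21.1% rose and 19.6% fell in HT29, and 13.7% and 9.9% in LS513. The shares were 16.8% and 12.3% in HCT116, and 13.1% and 9.15% in LS174T. The receptor counts in HT29 were near these shares. ALCAM, an adhesion molecule bound by S100B, fell in HT29 (-1.14 ± 0.15, edgeR adjusted p = 5.0e-06) and LS174T (-0.54) and rose in LS513 (0.47), the latter pair being lost without single libraries (adjusted p of up to 0.0741 and 0.137). AGER, the receptor of S100P and calprotectin, was called in no line. TLR4, another receptor of calprotectin, fell in LS174T from a mean of 1.38 to 0.394 CPM (-1.78 ± 0.28, edgeR adjusted p = 1.8e-04). IL10RA, called in HT29, had no count there in 2D and a mean of 0.0895 CPM in 3D, which is under the floor. Of 7 fused-type S100 genes, which encode proteins of the skin barrier, TCHH alone was tested and was not called.

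Markers of other cell types were low or absent in LS513, HCT116 and LS174T. Of the 11 myeloid and neutrophil markers LYZ alone was high, and only in HT29, at a mean of 1373 CPM in 2D and 2550 CPM in 3D. The summed level of the 11 was between 0.604 and 6.43 CPM in the other lines. Among 8 squamous epithelium markers, the summed level was between 164 and 318 CPM in HT29, mostly KRT13, and between 0.978 and 17.2 CPM in the other lines. In the lines with the most S100 genes called higher, the squamous sum was between 2.33 and 3.58 CPM in 2D and between 10.6 and 17.2 CPM in 3D in LS513, and between 0.978 and 2.53 CPM in 2D and between 4.88 and 7.81 CPM in 3D in HCT116. The summed level of the 8 epithelial markers was also higher in 3D in these lines, between 9544 and 9845 CPM against 12895 to 14484 CPM in LS513 and between 3574 and 4613 CPM against 5476 to 6055 CPM in HCT116, whereas its 2D and 3D ranges overlapped in HT29 and LS174T. The part of these marker levels in the growth effects on the S100 genes was not tested.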

How the data were processed

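Messenger RNA of 24 libraries was sequenced on a strand-specific kit as single reads of 75 bases. The authors trimmed reads (Trim Galore 0.4.1), aligned them with STAR, removed multi-mapped alignments, counted with HTSeq-count 0.5.3 and deposited raw counts per gene for 8 technical replicates per library (7 for 1 library, the eighth not analysed here). The submitters' processing notes name hg19, whereas the methods name Ensembl 91, which is on GRCh38. Of 58243 identifiers, 57980 matched GENCODE 29 (GRCh38). The strand and overlap options of HTSeq-count are not given in the sources used here.

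Technical replicates were summed after their spread was checked (median chi-square over expectation 0.999 to 1.03, beside 2.24 to 49.4 between libraries of a group). Groups came from the labels. Tests used edgeR 4.0.16 under R 4.3.3 (filterByExpr, TMM, glmQLFit with robust=TRUE over the 24 libraries and 8 groups, quasi-likelihood F test, two-sided tests, Benjamini-Hochberg adjustment over 19387 genes, threshold 0.05). SE is the log2 fold change over the root of its F value. Library totals set the floors. With 3 libraries against 3, an exact permutation test could not go below 0.10. On simulated data, 162 of 200 changed genes (81.0%) were called in HT29 among 19109 genes, with 11 other calls. Whether these figures hold for the calls in the measured libraries was not tested. Alternatives were other scalings, all genes with at least 1 count, DESeq2 1.42.0, a replicate block, a technical replicate left out, single lines, and each library left out. Promoters came from RefSeq (GRCh38.p14), and all 10 members matched. The members, gene lists and tests were chosen with earlier results of these data known. Members are all named, listed genes by calls in at least 2 lines in 1 direction or the largest change in a line. AGER, PLG and single genes behind small counts were named after their values were seen, as was the choice of the letters TATAA. Protein sequences were not used here. A gene of the plasminogen list is not reported here.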

Additional observations from a re-analysis of the deposited data

Results flagged for a closer look

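The growth effect, 3D over 2D, differed between the 4 lines by the test of the difference itself for 7 of the tested members, with adjusted p (edgeR) of 8.8e-05 for S100A2, 3.4e-04 for S100A3, 1.1e-05 for S100A4, 6.5e-04 for S100A6, 8.0e-04 for S100A10, 3.1e-04 for S100A11 and 6.8e-04 for S100A14. S100A2 was lower in 3D in HT29 alone among the called results, S100A10 was higher in LS513 and lower in LS174T, and S100A3, S100A4, S100A6, S100A11 and S100A14 had their largest log2 fold change in HCT116. These 7 calls held under all 30 alternatives run for them.

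Among the other S100 genes the same difference was found for S100A16 (edgeR adjusted p = 1.4e-05) and for S100A1 (0.039). S100A16 was called lower in 3D in HT29 and higher in the other lines. The fall in HT29 was lost without each of 11 libraries in turn (edgeR adjusted p of up to 0.346). It was also lost with the size factors of DESeq2 (0.0659), with DESeq2 itself (0.0633) and with the replicate block (0.290). The rise in LS174T was lost without each of 3 libraries (edgeR adjusted p of up to 0.132). S100A1 was between 0.0288 and 0.415 CPM in all libraries, near the floor, and its call was lost without any of 15 libraries, with an adjusted p of up to 0.0934.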

How the results depend on the processing

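Of 36 growth results of members in the 4 lines, 22 stayed on their side of the threshold under every alternative run, which were 30 for S100A3 in LS513 and S100A9 in HCT116 and 31 otherwise, none reversed, 6 of the 19 called lost the call under some alternative and 8 of those not called gained it. With all genes of at least 1 count, members called higher in HT29 went from 3 to 5. Under that setting, members called lower in LS174T went from 1 to 2, with S100A2 added (edgeR adjusted p = 0.0122). Members called higher in LS174T went from 2 to 1 with library totals only, with DESeq2, with only the libraries of the line and with the replicate block, and were between 1 and 3 with 1 library left out. Members called higher in LS513 were between 3 and 6 with 1 library left out, beside 6. Over all genes, calls with 1 library left out were between 2784 and 5643 in LS513 (4571 with all), between 3747 and 6836 in HCT116 (5637) and between 2083 and 6038 in LS174T (4305), and LS174T had 1648 calls when fitted alone. The lowest counts came without LS513 3D replicate 2, HCT116 2D replicate 1 and LS174T 3D replicate 2. The cause was not tested.

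The replicate block moved the genes whose growth effect differed between lines from 3314 to 1698. Libraries of equal number had correlations of their deviations between -0.146 and 0.0938 over 11 pairs, so the numbers were not taken as pairing. Under the block, S100A4 (edgeR adjusted p = 0.0886) and S100A6 (0.0703) in LS513, S100A14 in HT29 (0.178) and S100P in LS174T (0.0761) lost their calls, and S100A2 (0.0312) and S100A10 (0.0413) in HCT116 gained them. With all genes of at least 1 count, the growth effect on S100P differed between lines (edgeR adjusted p = 2.8e-04). Depth limits S100A8, S100A9, S100P in HCT116 and S100A3 in LS513, which lay at or near the floor.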
